A study of Arabidopsis thaliana with 16 samples.

Results

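The UGT family of Arabidopsis thaliana was described here through the probe sets that the array's probe table pairs with exactly 1 gene whose symbol starts with UGT followed by a digit. This rule found 47 probe sets, 1 for each of 47 genes, among 22810 probe sets on the array. The digits after UGT sort them into 11 number groups, of which UGT71 with 9 members, UGT76 with 8 and UGT73 with 7 were the largest. No measured value entered the rule. A further 3 probe sets name a UGT together with other genes and are not members.

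RNA came from cut shoots of 8-day-old seedlings in the ecotype Landsberg erecta (Ler), hybridised to 16 single-colour Affymetrix ATH1 arrays. All seedlings, controls included, grew on agar with sucrose in continuous light and were misted whole with 2 µM of the gibberellin GA4, 16 h before the experiment. In the rga line, dexamethasone (DEX) induces rga-delta17, a dominant form of a DELLA protein that gibberellin does not act on, and in the vector line the same vector carries no such transgene. The 6 groups were the rga line 2 h after 2 µM GA4 with 10 µM DEX (rga DEX 2 h) or GA4 alone (rga mock 2 h), the same line at 4 h (rga DEX 4 h and rga mock 4 h), and the vector line at 4 h (vector DEX and vector mock). The rga groups had 3 biological replicates each and the vector groups 2 each. The promoter behind the construct, the number of independent lines and any pooling of seedlings are not stated in the labels.

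UGT enzymes move a sugar, most often glucose, from a UDP-sugar onto small molecules such as plant hormones, flavonoids, lignin precursors and foreign chemicals. The conjugate is usually more soluble and, for a hormone, inactive, and many conjugates are stored in the vacuole. DELLA proteins are nuclear repressors of gibberellin signalling that gibberellin normally has degraded, and the series asked which genes respond early when a DELLA protein is present despite gibberellin. Sequences of the members were not used here.

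The vector DEX arrays stood apart from the rest of the series before any UGT was looked at. Over the 17059 probe sets tested, their correlations with the other 14 arrays ran from 0.789 to 0.884, whereas those among the other 14 ran from 0.916 to 0.975. Their 25S ribosomal RNA control read 12528 and 13088, against 391 to 2046 on the other arrays. The actin 3' to 5' control ratio was 12.8 and 14.2 on them and 14.9 and 16.6 on the vector mock arrays, against 7.98 to 11.4 on the rga arrays. What part these controls have in the vector line's UGT values, and in every comparison of the lines, was not tested. The shoot marker RCA, the only gene of 21 on the shoot list with a probe set, read 16738 to 23392, and 3 of 17 root markers summed to 126 to 219 on the vector DEX arrays, to 87.9 to 146 with vector mock and to 181 to 381 over all rga arrays. In RNA from whole shoots, fewer cells of a type and less RNA per cell cannot be told apart.

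Signals are the authors' MAS5 intensities on a linear scale, and a probe set's level cannot be set against another's. Of the 47 members, 37 passed the filter on dim probe sets and were tested, and every number group kept at least 1. The 10 left out were UGT71B8, UGT71C1, UGT72E3, UGT73C2, UGT73D1, UGT76E1, UGT78D3, UGT84A1, UGT84B1 and UGT84B2, so the UGT84 group, which holds enzymes for hydroxycinnamates and auxin, kept 2 of its 5 members. UGT76E1 read at most 11.7 on any array. UGT73D1, also among the 10, is taken up with its number group. Changes are given as log2 changes with the SE of the fit, a call is an adjusted p below 0.05 (limma, Benjamini-Hochberg over all 17059 probe sets), and "rose" and "fell" are used of calls.

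**Figure D1:**
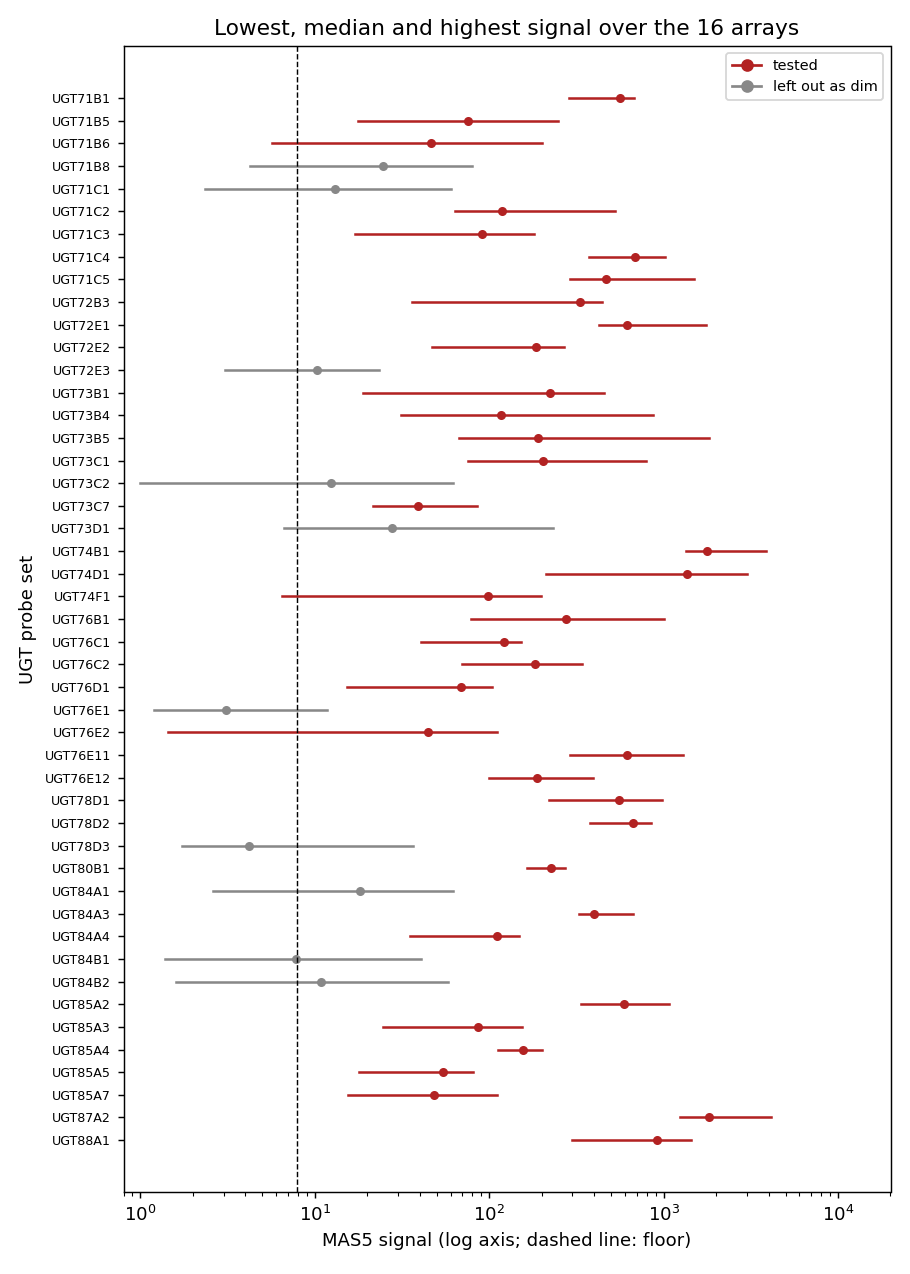
Lowest, median (point) and highest MAS5 signal of each of the 47 UGT probe sets over the 16 arrays, on a log axis, with the floor of 7.95 as a dashed line. The 37 tested probe sets are red and the 10 dim ones grey; UGT76E1, UGT78D3 and UGT84B1 have medians below the floor.

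In the rga line, 3 of the 37 tested members (8.11%) were called after 2 h of DEX, where 4.14% of all tested probe sets were. UGT73C1 and UGT85A2 rose, against 3.02% of all probe sets called higher, and UGT74F1 fell, against 1.12% called lower. After 4 h, 7 members were called (18.9%), where 5.16% of all probe sets were. All 7 rose, against 3.61% of all probe sets called higher and 1.55% called lower: UGT73B5, UGT73C1, UGT74D1, UGT76E11, UGT84A3, UGT85A2 and UGT87A2. The median log2 change over the tested members was 0.04 at 2 h and 0.19 at 4 h, and over all probe sets -0.01 and -0.02. UGT73C1 and UGT85A2 were the members called at both times. Averaged over both times, 9 members were called, 7 higher and 2 lower, a share of 24.3% where 9.6% of all probe sets were called (5.69% higher and 3.91% lower).

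In the vector line, 22 of 37 members (59.5%) were called after 4 h of DEX, where 47.3% of all probe sets were. Of these members 9 rose and 13 fell, beside 17.7% and 29.6% of all probe sets. The median log2 change over all probe sets in this comparison depended on the scaling and was -0.15 as deposited, -0.02 after quantile normalization and 0.12 when every array was centred on its median. Higher calls made up 37.4%, 43.6% and 58.1% of all calls under these scalings, in the same order. The members' split was 9 higher and 13 lower as deposited, 9 and 9 after quantile normalization, and 10 and 9 after centring. Their median log2 change was -0.08 as deposited.

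**Figure D2:**
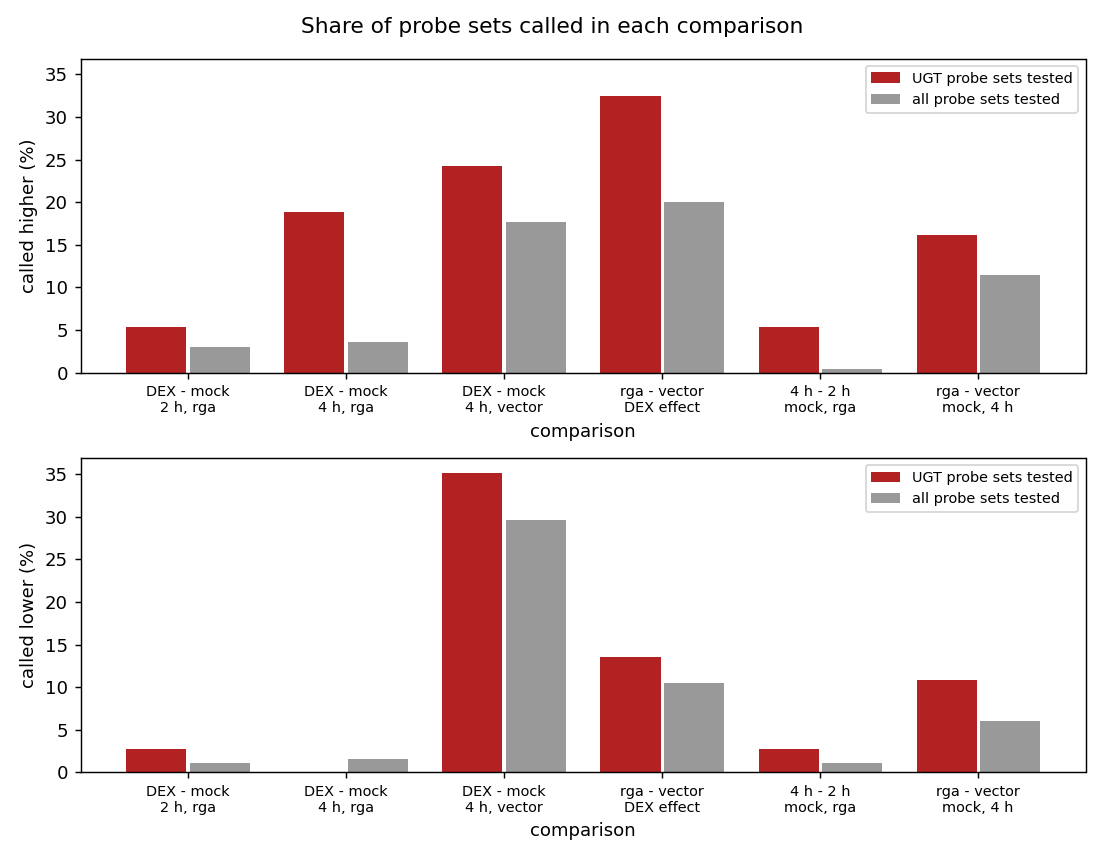
Percent of the 37 tested UGT probe sets (red) and of all 17059 tested probe sets (grey) called higher (top) or lower (bottom) in 6 comparisons. At 4 h in the rga line 18.9% of the members and 3.61% of all probe sets were called higher. In the vector line 24.3% of the members and 17.7% of all probe sets were called higher, and 35.1% and 29.6% lower.

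The difference between the lines in the 4 h DEX effect was tested for each member. It was called for 17 of 37 (45.9%), where 30.5% of all probe sets were called: the effect was higher in the rga line for 12 members and lower for 5, beside 20.0% and 10.5% of all probe sets. Quantile normalization and centring both gave 10 and 5. Over all probe sets, higher calls were 65.5% of the calls as deposited, 60.9% with quantile normalization and 42.4% with centring. This comparison shares its arrays with both 4 h DEX comparisons. The 4 h and 2 h DEX effects of the rga line differed for no member by limma (0 of 37 called, where 0.0469% of all probe sets were, 0.0293% higher and 0.0176% lower), and 5 members had an unadjusted p below 0.05.

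**Figure D3:**
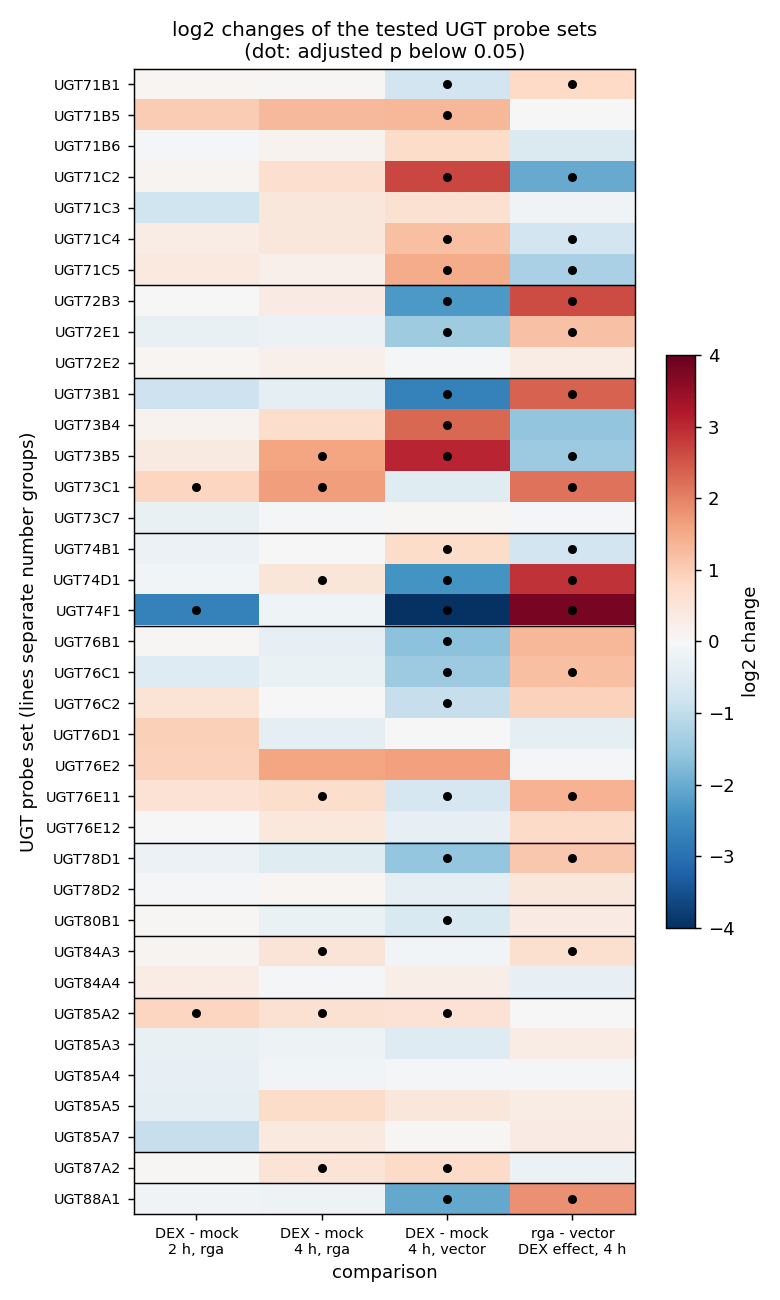
Log2 changes of the 37 tested UGT probe sets (rows, grouped by the number after UGT) in 4 comparisons, red for higher and blue for lower, with a dot where the adjusted p was below 0.05. Dots are sparse in the rga columns, with 3 at 2 h and 7 at 4 h, and number 22 and 17 in the vector column and in the column of differences between the lines.

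The UGT74 group holds UGT74F1 (AT2G43840, chromosome 2), an enzyme that makes the glucoside of the defence hormone salicylic acid, and at 2 h in the rga line it had the largest fall of the tested members. At 2 h its signal was 12.8, 34.6 and 13.6 with DEX, against 96.6, 115 and 147 in mock. The 3 DEX arrays lay well below the 3 mock arrays, a log2 change of -2.69 ± 0.50 (adjusted p = 0.0027, 6.47-fold lower, n = 3 each). At 4 h the groups overlapped, with 70.5, 148 and 101 in DEX and 145, 199 and 51.9 in mock, and the log2 change was -0.16 ± 0.50 (adjusted p = 0.927, 95% interval -1.21 to 0.88). The 4 h effect minus the 2 h effect was 2.53 ± 0.70 and was not called (adjusted p = 0.437). In the vector line both DEX arrays, 6.51 and 6.93, were under the floor of 7.95, against 103 and 150.0 in mock, a signal at least 15.6-fold lower with DEX (adjusted p = 3.08e-05). UGT74F1 was dim: when the lowest 50% of probe sets were left out instead of 25%, it was not tested.

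UGT74D1 (AT2G31750), an auxin glucosyltransferase, was among the brighter members, and its 4 h changes in the lines had opposite signs. In the rga line it read 2823, 2537 and 3015 at 4 h with DEX, against 2241, 2098 and 1651 in mock. The DEX arrays were all higher, by 0.49 ± 0.13 (adjusted p = 0.0399). The vector arrays read 298 and 211 with DEX, against 1191 and 1482 in mock, a log2 change of -2.40 ± 0.16 (adjusted p = 1.75e-09, 5.3-fold lower). The difference between the lines was 2.90 ± 0.21 (adjusted p = 5.56e-08), the most significant of all members. The fall in the vector line and the difference were called under every alternative run, but the rise in the rga line was lost without mock replicate 2 or 3 or without DEX replicate 1 or 3, with log2 changes of 0.36 to 0.53, and also under 3 of the 10 other alternatives, among them no filter on dim probe sets and no mean-variance trend. At 2 h its signal was 1282, 1129 and 1278 with DEX, against 1408, 1246 and 1334 in mock, and the groups overlapped.

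UGT74B1, which adds the glucose in glucosinolate synthesis, was not called in the rga line, with log2 changes of -0.24 at 2 h and -0.02 at 4 h. The vector arrays read 2572 and 3842 with DEX, against 1829.7 and 1957 in mock, and rose by 0.73 ± 0.15 (adjusted p = 0.000437). That value rests partly on vector DEX replicate 2, without which it was 0.44, still called, while the difference between the lines of -0.76 became -0.47 and was no longer called.

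**Figure D4:**
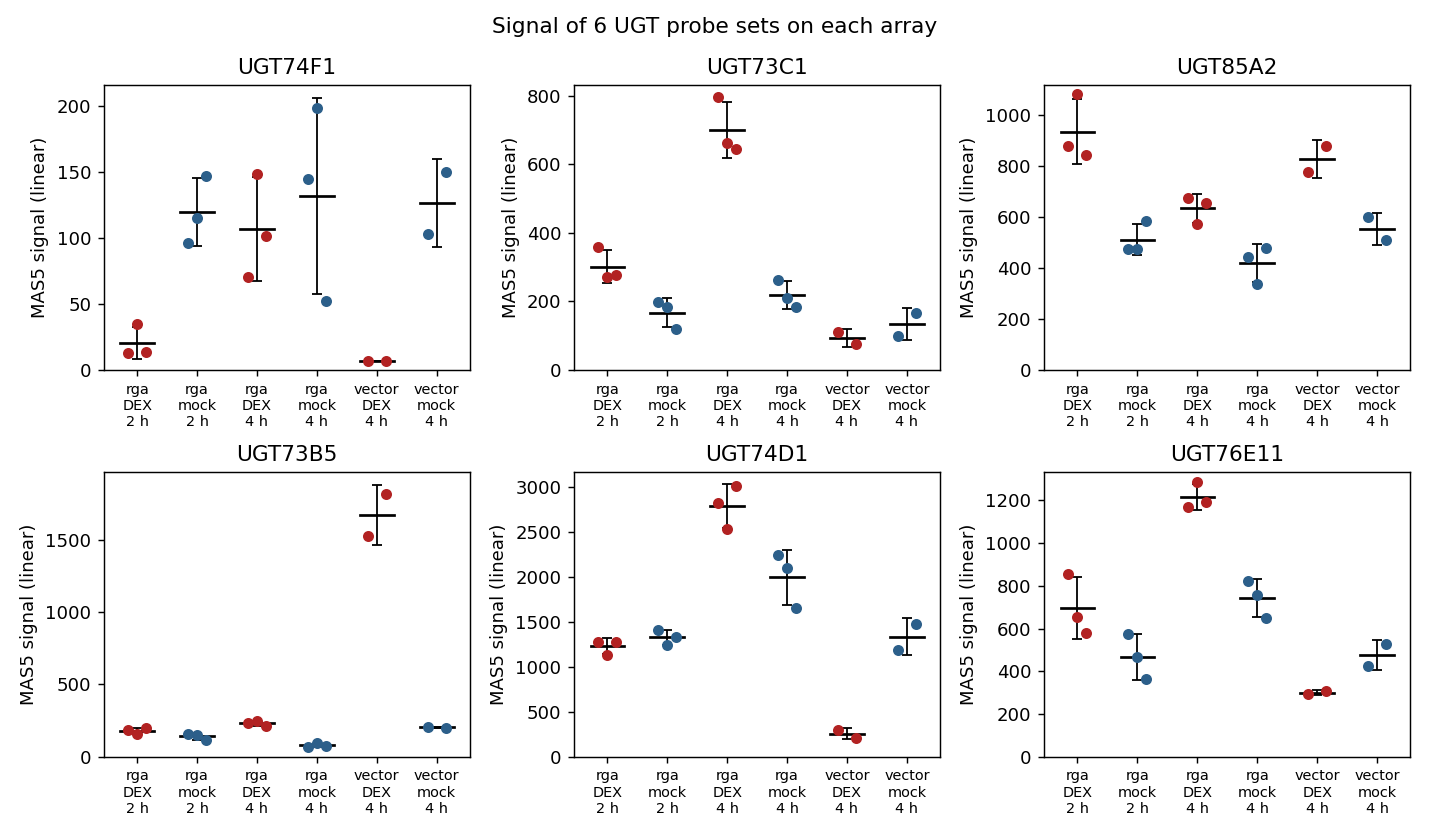
MAS5 signal (linear axis) of 6 UGT probe sets on each array, with group means (bars) and SDs, n = 3 for rga groups and 2 for vector groups, DEX in red and mock in blue. UGT74F1 sits at 12.8 to 34.6 in rga DEX 2 h and under the floor in vector DEX, UGT73C1 at 646 to 796 in rga DEX 4 h, and UGT73B5 at 1526 and 1818 in vector DEX.

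The UGT73 group contains enzymes that conjugate foreign chemicals and are known for induction by stress. At 4 h in the rga line 2 of its 5 tested members rose, beside 3.61% of all probe sets. UGT73C1 (AT2G36750), which glucosylates cytokinins and the explosive TNT in vitro, read 358, 272 and 276 at 2 h with DEX, against 198, 185 and 119 in mock. At 4 h it read 796, 662 and 646 with DEX, against 264, 209.6 and 185 in mock, and all DEX arrays lay far above all mock arrays. The log2 changes were 0.87 ± 0.23 at 2 h (adjusted p = 0.0373) and 1.69 ± 0.23 at 4 h (adjusted p = 0.000119, 3.22-fold higher). The 4 h rise was called under all alternatives. The 2 h call was lost when any array but mock replicate 1 was left out, with values of 0.64 to 0.96, and when dim probe sets were kept or the trend was dropped. The vector groups overlapped, with 112 and 75.8 in DEX and 100.3 and 167 in mock, and the difference between the lines was 2.17 ± 0.36 (adjusted p = 0.000171). Its own change in the vector line was -0.49 ± 0.28 and was not called.

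UGT73B5 (AT2G15480), a member linked to stress and pathogen responses, rose in both lines at 4 h. It read 232, 248 and 211 in rga DEX, against 66.8, 92.1 and 73.7 in rga mock, and 1526 and 1818 in vector DEX, against 205 and 199.9 in vector mock. Neither pair of groups overlapped. The rise was 1.58 ± 0.17 in rga plants (adjusted p = 5.48e-06) and 3.04 ± 0.20 in vector plants (adjusted p = 1.26e-09), which made the difference between the lines -1.46 ± 0.26 (adjusted p = 0.000316). The rga mock arrays moved too: UGT73B5 fell by 0.85 on the log2 scale at 4 h against 2 h in mock, and the 4 h mock arrays also enter the DEX comparison. At 2 h, with 187, 157 and 195 in rga DEX and 154, 151 and 116 in rga mock, the groups did not overlap, and the log2 change of 0.36 ± 0.17 was not called.

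Its neighbour in the genome, UGT73B4, rose in the vector line as well, with 600.5 and 870.5 in DEX against 129 and 172 in mock, by 2.28 ± 0.54. The rga groups of UGT73B4 had 152, 199 and 79.7 at 4 h with DEX, against 93.2, 118 and 51.7 in mock, groups that overlapped. UGT73B1, which accepts abscisic acid in vitro, went down in the vector line, with 56 and 18.9 in DEX against 216 and 209.5 in mock, a log2 change of -2.71 ± 0.37. The vector DEX replicates of UGT73B1 lay far apart, and the difference between the lines of 2.35 was 3.13 without vector DEX replicate 1 and 1.56 without replicate 2. Its rga signals were 251, 306 and 269.5 at 4 h with DEX and 457, 417 and 231 in mock, and 122, 139.7 and 155 at 2 h with DEX and 259, 217 and 257 in mock. The 2 h groups did not overlap, but the change of -0.82 ± 0.30 was not called (adjusted p = 0.182). UGT73C7 was called in no comparison.

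Among the dim members of this group, UGT73D1 read 219 and 232 on the vector DEX arrays, against 30.2 and 52.4 in vector mock, and at most 60.8 on the rga arrays. It was not called in a fit of all probe sets without the filter (log2 change 2.50, adjusted p = 0.111). UGT71C1, a dim member of another group, was called there in the vector line, with 37.2 and 60.5 in DEX against 4.02 and 2.33 in mock, both mock arrays under the floor (adjusted p = 0.016).

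A list of enzymes for foreign chemicals and stress had 5 tested members, UGT73B1, UGT73B4, UGT73B5, UGT73C1 and UGT87A2. In the rga line 1 rose at 2 h and 3 at 4 h, beside 3.02% and 3.61% of all probe sets. In the vector line 3 rose and 1 fell, beside 17.7% and 29.6%. GT72B1 (UGT72B1), on the list but outside the rule, fell there too. Of 9 glutathione transferases tested, a family that conjugates many of the same chemicals, 1 fell in the rga line at each time, beside 1.12% and 1.55% of all probe sets. In the vector line 1 rose and 3 fell, shares near the 17.7% and 29.6% of all probe sets, and the list's median log2 change was -0.55. GSTU27 had called log2 changes of -0.46 at 2 h, -0.54 at 4 h and -3.77 in the vector line. GSTU25 rose by 2.37 in the vector line, while GSTU16 (-2.55) and GSTU18 (-1.93) fell there.

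The UGT76 group includes UGT76C1 and UGT76C2, which inactivate cytokinins, UGT76B1, which glucosylates isoleucic, salicylic and N-hydroxypipecolic acids, and the UGT76E enzymes. Of its 7 tested members 1, UGT76E11, was called in a DEX comparison of the rga line, where 10.2% of all probe sets were. UGT76E11 (AT3G46670) read 1167, 1285 and 1194 in rga DEX 4 h, against 824, 756 and 649 in rga mock 4 h. All DEX arrays were above all mock arrays, by 0.72 ± 0.16 (adjusted p = 0.0121). At 2 h it read 857, 653 and 577 with DEX and 576, 467 and 362 in mock, and the change of 0.58 ± 0.16 missed the threshold (adjusted p = 0.0537). The vector line went the other way, with 292 and 307 in DEX against 427 and 527 in mock, a log2 change of -0.66 ± 0.20 (adjusted p = 0.01), and the difference between the lines was 1.38 ± 0.26 (adjusted p = 0.000441). The fall in the vector line was not called under either other scaling, nor without vector mock replicate 2 (-0.51) or vector DEX replicate 1 (-0.63). The 4 h rise in the rga line was lost without mock replicate 3 (0.62).

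The adjoining UGT76E12 had 302, 391 and 287 in rga DEX 4 h, against 286, 313 and 153 in rga mock 4 h, and was not called in any comparison. UGT76E2 had large but scattered changes, 1.57 ± 0.60 at 4 h for the rga line and 1.65 ± 0.74 for the vector line, neither called (adjusted p = 0.177 and 0.0767).

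UGT76B1 read 249 and 244 in vector DEX, against 598 and 999 in vector mock, and fell by 1.65 on the log2 scale (SE 0.61, adjusted p = 0.0333). That call was lost without vector mock replicate 2 (-1.28) or either vector DEX array (-1.66 and -1.63), under both other scalings, with no filter and without the trend. UGT76B1 varied widely in the rga line at 4 h, with 304, 318 and 787 in DEX and 212, 940.2 and 737 in mock. With UGT74F1, UGT71C3 and UGT76D1, it makes up the 4 tested enzymes on a list for salicylic and N-hydroxypipecolic acids. Of these, 1 fell at 2 h in the rga line, beside 1.12% of all probe sets. None was called at 4 h, where 5.16% of all probe sets were. In the vector line 2 fell, where 29.6% of all probe sets did.

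UGT76C1 and UGT76C2, neighbours on chromosome 5, both fell in the vector line. UGT76C1 had 40.6 and 60.2 in DEX, against 127 and 144 in mock, a change of -1.45 ± 0.30, and UGT76C2 had 70.2 and 109, against 158 and 175, a change of -0.93 ± 0.29. UGT76C2 was not called under either other scaling and had -0.61 without vector DEX replicate 1 and -0.85 without vector mock replicate 2, neither called, and the difference between the lines was called for UGT76C1 alone (1.19 ± 0.39, adjusted p = 0.0272). That call was lost without rga mock replicate 3, vector DEX replicate 1 or either vector mock array, with values of 0.91 to 1.28, and under quantile normalization (0.69) and centring (0.94). Neither was called in the rga line, with log2 changes at 4 h of -0.26 for UGT76C1 and -0.00081 for UGT76C2. Of the 3 tested enzymes on a cytokinin list, UGT73C1 rose at both times in the rga line and UGT76C1 and UGT76C2 fell in the vector line. Of all probe sets, 3.02% rose at 2 h and 3.61% at 4 h in the rga line, and 29.6% fell in the vector line.

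No member of the UGT71 group was called at a single time in the rga line, where 4.14% of all probe sets were at 2 h and 5.16% at 4 h. The log2 changes of its 7 tested members had both signs at 2 h. At 4 h all were positive, down to 0.03 for UGT71B1, but they rest on the same mock arrays. The share of all probe sets with a positive change is not given, so no shared direction is read from these signs. In the vector line 4 rose and 1 fell, beside 17.7% and 29.6% of all probe sets. UGT71C5, which makes the glucose ester of abscisic acid, read 1388 and 1487 in vector DEX, against 476 and 555 in vector mock, and rose by 1.48 ± 0.24 (adjusted p = 5.01e-05). In rga DEX 4 h it read 596, 292 and 544, against 369, 437 and 392 in mock, and these groups overlapped. Between the lines the effects differed by -1.29 ± 0.31 (adjusted p = 0.0036). UGT71B6, the other tested enzyme on the abscisic acid list, was not called in any comparison. In mock at 4 h UGT71B6 read 34.6, 16.3 and 40.9 in the rga line, against 97.1 and 144 in the vector line. These groups did not overlap.

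UGT71C2 showed the largest UGT71 change, with 388 and 523 in vector DEX, against 77.9 and 64 in vector mock, a rise of 2.67 ± 0.31 (adjusted p = 1.21e-06). The rga arrays had 147, 152 and 149.9 at 4 h with DEX, against 87.6, 73.6 and 128 in mock, groups that did not overlap, but the change of 0.67 ± 0.25 was not called (adjusted p = 0.165). Its effects differed between the lines by -2.00 ± 0.40. UGT71C4 read 780.5, 769 and 929.9 in rga DEX 4 h, against 693, 545 and 574 in rga mock 4 h, and 966 and 1019.5 in vector DEX, against 375 and 491 in vector mock. It was called in the vector line (1.21 ± 0.16) and in the average over both times in the rga line (0.38 ± 0.09), not at 4 h alone (0.46 ± 0.13, adjusted p = 0.0608). At 2 h UGT71C4 read 884, 661 and 848 with DEX, against 648, 597 and 686 in mock. For UGT71C4 the difference between the lines, -0.75, was not called without vector mock replicate 1 (-0.56).

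UGT71B5 rose in the vector line and in the average over both times in the rga line. It read 103, 98.1 and 94.2 at 2 h and 133, 60.6 and 77.1 at 4 h in rga DEX, against 37.5, 57.5 and 51.9 at 2 h and 56.2, 17.6 and 42.1 at 4 h in rga mock, and 189 and 248 in vector DEX, against 74.1 and 101 in vector mock. DEX arrays were above mock arrays in each pair. The averaged rga effect was 1.17 ± 0.28 (adjusted p = 0.0107) and the vector effect 1.32 ± 0.48 (adjusted p = 0.0317), and the vector call was lost without any of the 4 arrays and with no filter. The difference between the lines was -0.02 ± 0.62 with a 95% interval of -1.33 to 1.29. UGT71B1 had a log2 change of -0.75 ± 0.14 in the vector line and 0.03 ± 0.12 at 4 h in the rga line, with a called difference between the lines (0.78 ± 0.19).

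**Figure D5:**
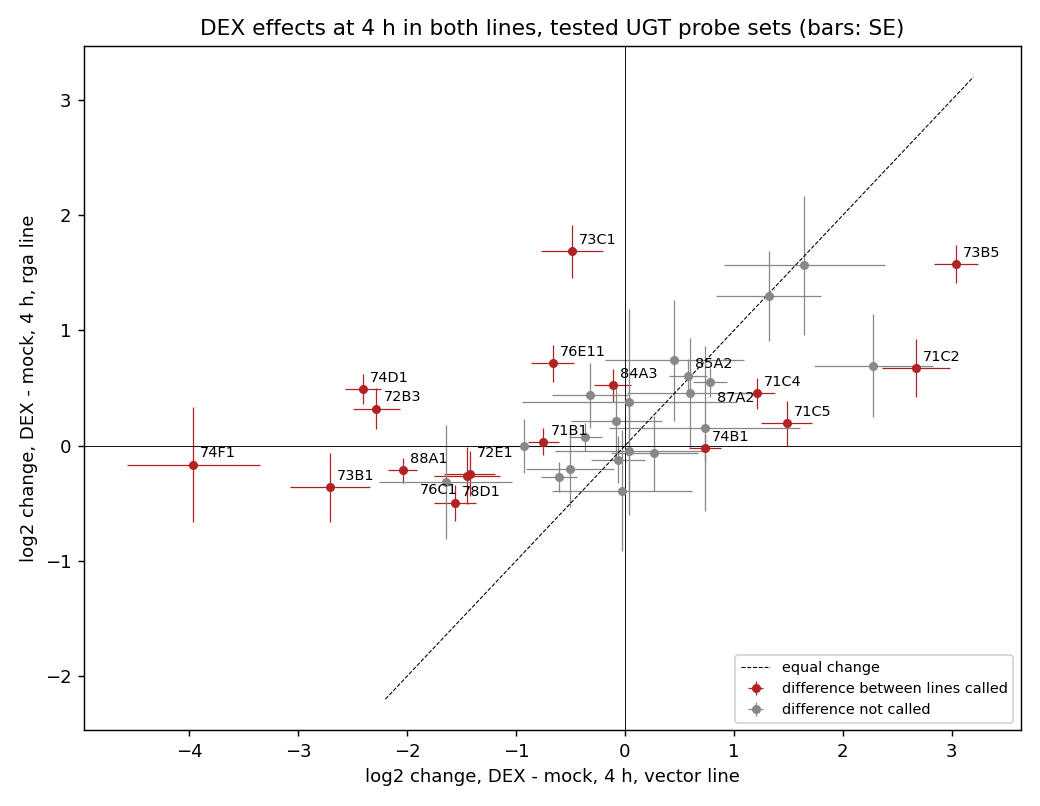
Log2 DEX effect at 4 h in the rga line (vertical) against that in the vector line (horizontal) for the 37 tested UGT probe sets, with SEs as bars; red points have a called difference between the lines and the dashed line marks equal change. Points spread from -3.97 to 3.04 along the vector axis and from -0.50 to 1.69 along the rga axis; UGT73C1, UGT76E11, UGT74D1 and UGT72B3 are among the points above 0 in the rga line and below 0 in the vector line.

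The UGT72 and UGT84 groups include enzymes that act on phenylpropanoids. UGT84A3, an enzyme for hydroxycinnamic acids, read 665, 617 and 598 in rga DEX 4 h, against 518, 439 and 364 in rga mock 4 h, and rose by 0.52 ± 0.14 (adjusted p = 0.0361). The 3 DEX arrays were all higher, but the call was lost without any array except mock replicate 1 (0.39 to 0.56), with no filter, without the trend and in a fit of these arrays alone. Its vector groups lay close together, at 332 and 326 in DEX and 373 and 338 in mock. At 2 h UGT84A3 read 459, 484 and 341 with DEX and 402, 375 and 396 in mock, and the groups overlapped. The difference between the lines was 0.64 ± 0.22 (adjusted p = 0.0368), a call lost in 8 of 10 fits with an array left out, under both other scalings, with no filter and without the trend.

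UGT72B3, a close relative of an enzyme for chlorophenols and lignin precursors, fell steeply in the vector line. It read 35.9 and 52.3 in vector DEX, against 181 and 246 in vector mock, a change of -2.28 ± 0.22 (adjusted p = 1.03e-07, 4.86-fold lower). The rga arrays had 413, 369.6 and 446 at 4 h with DEX, against 332, 349 and 299.7 in mock, a change of 0.32 ± 0.18 that was not called although the groups did not overlap. The lines differed by 2.60 ± 0.28 (adjusted p = 1.75e-06). UGT72E1, which glucosylates monolignols, also fell in the vector line (-1.43 ± 0.24), and the vector mock arrays were the high ones, at 1519.6 and 1750.0, against 595 and 618 in vector DEX and 425 to 1099.9 on the rga arrays. UGT72E2, another monolignol enzyme, was not called. Of the 4 tested members on the list for hydroxycinnamates and monolignols, 1 rose at 4 h in the rga line, beside 3.61% of all probe sets. In the vector line 1 fell, where 29.6% of all probe sets did. GT72B1 (UGT72B1), on that list but outside the rule, also fell in the vector line (-2.29).

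In the UGT78 group, UGT78D1, a flavonol rhamnosyltransferase, read 221 and 225 in vector DEX, against 601 and 720.1 in vector mock, and fell by 1.56 on the log2 scale (SE 0.19, adjusted p = 2.79e-06). The rga arrays read 435, 662 and 689.7 at 4 h and 437, 461 and 473 at 2 h with DEX, against 765, 746 and 981 at 4 h and 624, 493 and 502 at 2 h in mock. The DEX arrays were lower in each pair. The averaged effect of -0.37 ± 0.11 was called (adjusted p = 0.0488) and that call did not survive the loss of any of 9 arrays among the 12, with values of -0.40 to -0.26. It was also lost under 7 of the 10 other alternatives, among them centring, no floor, no filter, no trend, a fit of these arrays alone and a fit without the vector DEX arrays. The effects at 2 h (-0.23) and 4 h (-0.50) were not called. The lines differed by 1.06 ± 0.25 (adjusted p = 0.00331). UGT78D2, a flavonoid glucosyltransferase and the other tested member on the flavonoid list, was not called in a DEX comparison. UF3GT (UGT79B1), on that list but outside the rule, fell by 0.90 in the vector line.

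UGT85A2 (AT1G22360, chromosome 1) rose with DEX in both lines, and at both times in the rga line. It read 878, 1081 and 844 in rga DEX 2 h, against 475, 476 and 583 in rga mock 2 h. At 4 h it read 676, 571 and 653 in rga DEX, against 442, 336 and 478 in rga mock, and 775 and 879 in vector DEX, against 598 and 509 in vector mock. DEX arrays were above mock arrays in all 3 pairs. The log2 changes were 0.87 ± 0.14 at 2 h (adjusted p = 0.000847), 0.61 ± 0.14 at 4 h (adjusted p = 0.0146) and 0.58 ± 0.17 in the vector line (adjusted p = 0.00975). The lines differed by 0.03 ± 0.22, with a 95% interval of -0.44 to 0.50. The 2 h call was kept under every alternative, whereas the 4 h call was lost without mock replicate 2 (0.46) or DEX replicate 1 or 3 (0.56 and 0.59), and the vector call without vector mock replicate 2 (0.46) or vector DEX replicate 2 (0.49). The other 4 members of the group, UGT85A3, UGT85A4, UGT85A5 and UGT85A7, were called in no comparison, and UGT85A3, UGT85A5 and UGT85A7 stand in a run with UGT85A2 on chromosome 1.

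UGT87A2 (AT2G30140), known for roles in flowering time and in salt and drought responses, rose at 4 h in both lines. It read 2221, 2202 and 2219 in rga DEX, against 1529, 1829.8 and 1238 in rga mock, and 4103 and 3888 in vector DEX, against 2371 and 2280.2 in vector mock. The log2 changes were 0.55 ± 0.13 (adjusted p = 0.0143) for rga and 0.78 ± 0.15 (adjusted p = 0.000413) for vector, and their difference was -0.23 ± 0.20 (95% interval -0.65 to 0.19). The rga call was lost without mock replicate 3 (0.40) and without DEX replicate 1 or 3 (both 0.55), and with no filter or without the trend. The averaged effect of 0.30 was called, and that call was lost in 9 of 12 fits with an array left out and under 4 of the 10 other alternatives. At 2 h the groups overlapped, at 1828, 1374 and 1655 with DEX and 1705, 1353 and 1604 in mock.

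UGT88A1 fell in the vector line and was not called in a DEX comparison of the rga line. It read 333 and 299 in vector DEX, against 1433 and 1176 in vector mock, a change of -2.04 ± 0.13 (adjusted p = 9.28e-10, 4.12-fold lower). In rga DEX 4 h it read 856, 971 and 938, against 1173, 957 and 1084 in rga mock 4 h, and the difference between the lines was 1.83 ± 0.17 (adjusted p = 4.14e-07). UGT80B1, a sterol glucosyltransferase and so unlike the other members in its substrate, fell by 0.61 on the log2 scale in the vector line (adjusted p = 0.0049), a call lost under both other scalings and without vector DEX replicate 1 (-0.51).

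Read across the lines at 4 h, 3 of the 7 members that rose in the rga line also rose in the vector line (UGT73B5, UGT85A2 and UGT87A2), 2 were not called there (UGT73C1 and UGT84A3) and 2 fell there (UGT74D1 and UGT76E11). Of all 615 probe sets that rose at 4 h in the rga line, 84.9% also rose in the vector line, 10.7% were not called there and 4.39% fell there. These comparisons share no arrays. In all, 11 of the 37 tested members were called in at least 1 DEX comparison of the rga line, where 10.2% of all probe sets were, and 26 in at least 1 of the 8 comparisons, where 57.9% were. The 11 never called were 4 of the UGT85 group, 3 of the UGT76 group (UGT76D1, UGT76E2 and UGT76E12), UGT71B6, UGT71C3, UGT72E2 and UGT73C7.

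Many members stand beside each other in the genome, in 13 runs that hold 30 of the 47, and 6 runs had more than 1 tested member. In the vector line, where 47.3% of all probe sets were called, no run had members called in opposite directions. Only the runs with UGT71C5, UGT73B5 and UGT76C2 had more than 1 called member, so the other runs could not have shown it. Neighbouring probe sets at large were not compared in this way. All tested members were called one way in 2 runs, UGT73B5 with UGT73B4 (both higher) and UGT76C2 with UGT76C1 (both lower). In the run of UGT71C5, UGT71C4 and UGT71C3 on chromosome 1, the first 2 rose and UGT71C3 was not called (0.60 ± 0.58).

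The mock arrays alone were compared over time and between the lines. In the rga line, 3 of 37 members (8.11%) differed between 4 h and 2 h of mock, where 1.54% of all probe sets did (0.399% higher and 1.14% lower): UGT74D1 (0.58 ± 0.13) and UGT76E11 (0.68 ± 0.16) were higher at 4 h and UGT73B5 (-0.85 ± 0.17) lower. UGT74D1 read 2241, 2098 and 1651 at 4 h, against 1408, 1246 and 1334 at 2 h. Each of these calls was lost without some single array, UGT74D1 without any but 4 h replicate 3 (0.49 to 0.62), UGT76E11 without 2 h replicate 2 or 3 or 4 h replicate 1 or 2 (0.51 to 0.69) and UGT73B5 without 2 h replicate 1 or 4 h replicate 1 (-0.78 and -0.75). These 3 members are also among those that rose with DEX at 4 h, and the share of all probe sets called in both comparisons is not given. The DEX comparison uses the same 4 h mock arrays. A higher 4 h mock value, as for UGT74D1 and UGT76E11, makes the DEX change smaller, and a lower one, as for UGT73B5, makes it larger.

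Between the lines in mock at 4 h, 10 members were called (27.0%), where 17.6% of all probe sets were, 11.5% higher and 6.03% lower. UGT84A4 (1.36 ± 0.36), UGT76E11, UGT72B3, UGT74D1, UGT78D2 and UGT71C4 were higher in the rga line, and UGT73B5 (-1.40 ± 0.18), UGT71B5, UGT72E1 and UGT87A2 lower. UGT84A4 read 128, 112 and 88 in the rga line, against 35.2 and 49.8 in the vector line. This split of 6 higher and 4 lower became 4 and 4 after quantile normalization and 1 and 6 after centring, while over all probe sets the share of calls that were higher was 65.7%, 53.7% and 35.4%. All these calls except that of UGT73B5 were lost without some single array, most often vector mock replicate 1, without which 3 members were called. Its absence moved UGT71C4 to 0.29 and UGT72B3 to 0.41, and without rga mock replicate 2 UGT71B5 was at -0.83. Line and the actin control ratio moved together here, and the part of RNA quality was not tested.

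Genes for the upstream and competing steps were poorly covered by named probe sets. Of 4 tested genes for auxin conjugation and its reversal, GH3.3, which joins auxin to amino acids, fell in the rga line, with log2 changes of -0.82 at 2 h and -1.13 at 4 h, and in the vector line (-3.86). WES1 (GH3.5), a related enzyme, rose by 2.35 in the vector line and was not called in the rga line, and the other 2 were not called in a DEX comparison. Lists for salicylic acid, phenylpropanoid, cytokinin, abscisic acid, glucosinolate and sugar nucleotide genes had 0 to 2 tested members each. Of these, CCR2 (3.64) and DFR (-0.63), of the phenylpropanoid list, and USP (0.71), of the sugar nucleotide list, were called in the vector line and none in a DEX comparison of the rga line.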

How the data were processed

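Members and lists were chosen with earlier results of these data known. Single-colour ATH1 intensities, 1 per probe set on a linear scale, were used as deposited; the authors made them with MAS5, per the submitters' processing notes, and no source used here gives its version or the scanner settings. The mean after trimming 2% at each end was 500.05 on each of the 16 arrays, so every array had been scaled to 1 target, which was kept; the number of arrays (3 or 2 per group) limits the precision. Symbols were matched through the RefSeq table (assembly TAIR10.1, used for names and gene order): all 47 members had a locus with the same symbol, and RefSeq holds 58 genes with a UGT symbol.

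The 64 control probe sets were left out, a floor was set at the 10th percentile (7.95) before taking log2, and the dimmest 25% of probe sets by mean log2 were dropped. The tests came from 1 fit of all arrays with limma 3.58.1 in R 4.3.3 (6 group means, 10 residual degrees of freedom, eBayes with a trend), tested on simulated data, with 8 comparisons. Group assignments came from the sample titles. Per-array values were printed for members called in a rga DEX comparison. They were also printed for the 12 with the largest changes among calls in the vector line or the difference between the lines. Some other members were given per array too, among them UGT76E12, UGT84A4 and the dim UGT73D1 and UGT71C1. Of each list of other genes, up to 4 tested members with the smallest p in any DEX comparison were named; for a gene with several probe sets the brightest stood for it. The lists are described by counts and medians. Same-numbered arrays of different groups of a line deviated together with correlations of -0.09 to 0.26 (median 0.008). Differently numbered ones had -0.24 to 0.13 (median -0.006). The numbers were not taken to pair the samples, and a fit with a replicate block is among the alternatives. Alternatives are given with the results that depend on them; the fit that omits the vector DEX arrays was chosen after seeing the data.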

Additional observations from a re-analysis of the deposited data

Results flagged for a closer look

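The 17 members whose 4 h DEX effect differed between the lines are set apart because the same contrast gave different results in the rga and the vector line, by the test of the difference itself (limma, adjusted p below 0.05). The effect was higher in the rga line, in log2 units, for UGT74F1 (3.80), UGT74D1 (2.90), UGT72B3 (2.60), UGT73B1 (2.35), UGT73C1 (2.17), UGT88A1 (1.83), UGT76E11 (1.38), UGT76C1 (1.19), UGT72E1 (1.18), UGT78D1 (1.06), UGT71B1 (0.78) and UGT84A3 (0.64). It was lower in the rga line for UGT71C2 (-2.00), UGT73B5 (-1.46), UGT71C5 (-1.29), UGT74B1 (-0.76) and UGT71C4 (-0.75). The value of UGT74F1 is fitted and depends on the floor, since both vector DEX arrays were under it. All 17 rest on the vector DEX arrays, which read 12528 and 13088 for 25S ribosomal RNA, against 391 to 2046 elsewhere, and the part of that in these differences was not tested.

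UGT73D1, which was too dim to be tested, is set apart because it read above every mock array of the series on both vector DEX arrays. Its mean signal there was 226, against 30.2 and 52.4 on the vector mock arrays.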

How the results depend on the processing

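No call of a member changed sign under any alternative run. A call was counted as kept when made under every alternative in which the member was tested, single arrays left out included. In the rga line these were 2 of 3 at 2 h (UGT74F1 and UGT85A2) and 2 of 7 at 4 h (UGT73B5 and UGT73C1). Averaged over both times they were 7 of 9 (all but UGT78D1 and UGT87A2). They were 16 of 22 in the vector line and 13 of 17 for the difference between the lines. In mock they were 0 of 3 over time and 1 of 10 between the lines. Some kept calls belong to UGT71B5, UGT71C2, UGT73B4, UGT74F1 and UGT76C1, which were not tested when the lowest 50% of probe sets were left out. With dim probe sets kept in, the number of members called was 4 at 4 h in the rga line, 1 for mock over time and 6 for mock between the lines. Without the mean-variance trend it was 4 at 4 h in the rga line and 1 for mock over time, and in a fit of only the arrays compared it was 0 for mock over time. Leaving out each array in turn gave 2 to 4 members at 2 h, 3 to 9 at 4 h and 7 to 9 averaged in the rga line, 17 to 22 in the vector line, 14 to 18 for the difference between the lines, 0 for the difference between the times, 1 to 3 for mock over time and 3 to 14 for mock between the lines. The 4 h count in the rga line was 4 without mock replicate 2 and 3 without mock replicate 3, DEX replicate 1 or DEX replicate 3. That of mock between the lines was 4 without rga mock replicate 1 and 3 without vector mock replicate 1, and that of mock over time was 1 without any 2 h array or without 4 h replicate 1 or 2. In a fit that leaves 1 array in a vector group, that array is assumed to vary like the other groups. The share of all probe sets called is not given for these fits or for those that follow. Whether the members' counts moved with the whole array therefore cannot be read from them. The cause of these changes was not tested. The replicate block, a term for the replicate number within each line, gave 4 members at 2 h, 7 at 4 h, 8 averaged, 22 in the vector line, 18 for the difference between the lines, 0 for the difference between the times, 2 for mock over time and 9 for mock between the lines. Under the block the calls of UGT74D1 at 4 h and of UGT78D1 and UGT87A2 in the average were not made. Without the vector DEX arrays, 4 members were called at 2 h, 7 at 4 h and 9 averaged in the rga line. Signal over background limits what can be said of the 10 dim members.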

Other observations

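Genes that carry a UGT name as a synonym but another symbol fell outside the rule. They were not counted among the tested enzymes of the lists. UGT72B1 is on the lists for foreign chemicals and for hydroxycinnamates, and UGT79B1 is on the flavonoid list. GT72B1 (UGT72B1), an enzyme for chlorophenols and lignin precursors and a relative of UGT72B3, had a log2 change of -2.29 ± 0.15 in the vector line, and the DEX effect was higher in the rga line by 2.47 ± 0.19. UF3GT (UGT79B1), an anthocyanin enzyme, fell by 0.90 in the vector line and was higher in the rga line than in the vector line in mock by 2.14 ± 0.24, both called. SGT (UGT80A2), the other sterol enzyme, was called in no comparison.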
